A study of Mus musculus with 8 samples.

Results

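Retinoid metabolism turns dietary vitamin A into retinoic acid, and 9 genes of this route were followed: Aldh1a1, Aldh1a2, Aldh1a3, Rdh10, Rdh12, Dhrs3, Dhrs9, Crabp2 and Cyp26b1. They were taken by name from a table of 49315 genes measured in whole esophagus. The 9 genes had been picked with the difference between the groups already known, so their own levels and fold changes are given as a description, with no test. All 9 passed the filter on low counts that left 16760 genes, and the lowest count of a member in any library was 29. The comparison asks how transcripts of this route differ between an esophagus with added IL-33 and one without.

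RNA came from male mice aged 8 weeks, with strain C57BL/6J given for both groups. The EoE33 group held 4 mice with a transgene that overexpresses IL-33, an alarmin cytokine, in the esophagus, where the series title places it in the epithelium. The wild type group held 4 littermates without it. The promoter of the transgene is not given in the sources used here, and each library is 1 mouse. Depth per library ran from 17.73 (EoE33 replicate 2) to 24.07, in units of 1e6 counts. Levels are CPM, counts per 1e6 counts with TMM-scaled library sizes.

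The tissue label was checked against markers. All 8 squamous epithelial markers were present, with a summed level of 51968 to 91285 CPM in wild type and 33594 to 50156 CPM in EoE33. Of these 6 were higher in EoE33, among them the basal keratin gene Krt5, and 2 were lower, Krt4 and Krt13 of the suprabasal layers. All 8 skeletal muscle markers were lower, with sums of 27738 to 30127 CPM in wild type and 7367 to 9899 CPM in EoE33. In bulk libraries fewer cells of a type and less RNA per cell cannot be told apart. Of the eosinophil markers 4 of 5 were higher, with sums of 0.176 to 1.35 CPM in wild type and 8.55 to 13.6 CPM in EoE33. Some wild type libraries carried transcripts of neighbouring organs. The airway secretory gene Scgb1a1 reached 350.6 CPM in replicate 3, where the other wild type libraries had 5.44 to 5.90 CPM. The liver gene Alb reached 91.3 CPM in replicate 1, where the other wild type libraries had 3.21 to 6.90 CPM.

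Retinol is oxidised to retinaldehyde by enzymes such as Rdh10, and retinaldehyde is oxidised irreversibly to retinoic acid by the retinaldehyde dehydrogenases Aldh1a1, Aldh1a2 and Aldh1a3. Reductases such as Dhrs3 return retinaldehyde to retinol, and Cyp26 enzymes degrade retinoic acid. Crabp2 carries retinoic acid to nuclear receptors, which act on target genes as pairs of a RAR and an RXR. In stratified squamous epithelia vitamin A restrains keratinization, and its lack leads to cornified, skin-like surfaces.

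The 9 genes did not move one way. Aldh1a3, Rdh10, Aldh1a2 and Dhrs9 were higher in EoE33, Crabp2, Aldh1a1, Cyp26b1 and Rdh12 were lower, and Dhrs3 stood at the same mean level within its spread. In the fit across all genes 8 of the 9 were past an edgeR adjusted p of 0.05, 4 in each direction, where 63.4% of all genes tested were past it, 31.3% higher and 32.1% lower. The groups did not overlap for 7 members, 3 higher and 4 lower, as for 59.5% of all genes tested (29.6% higher and 29.9% lower). The absolute log2 fold change was also at least 1 for 6 members, against 27.2% of all genes. Since the members were chosen with this contrast known, nothing is read from these counts.

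**Figure D1:**
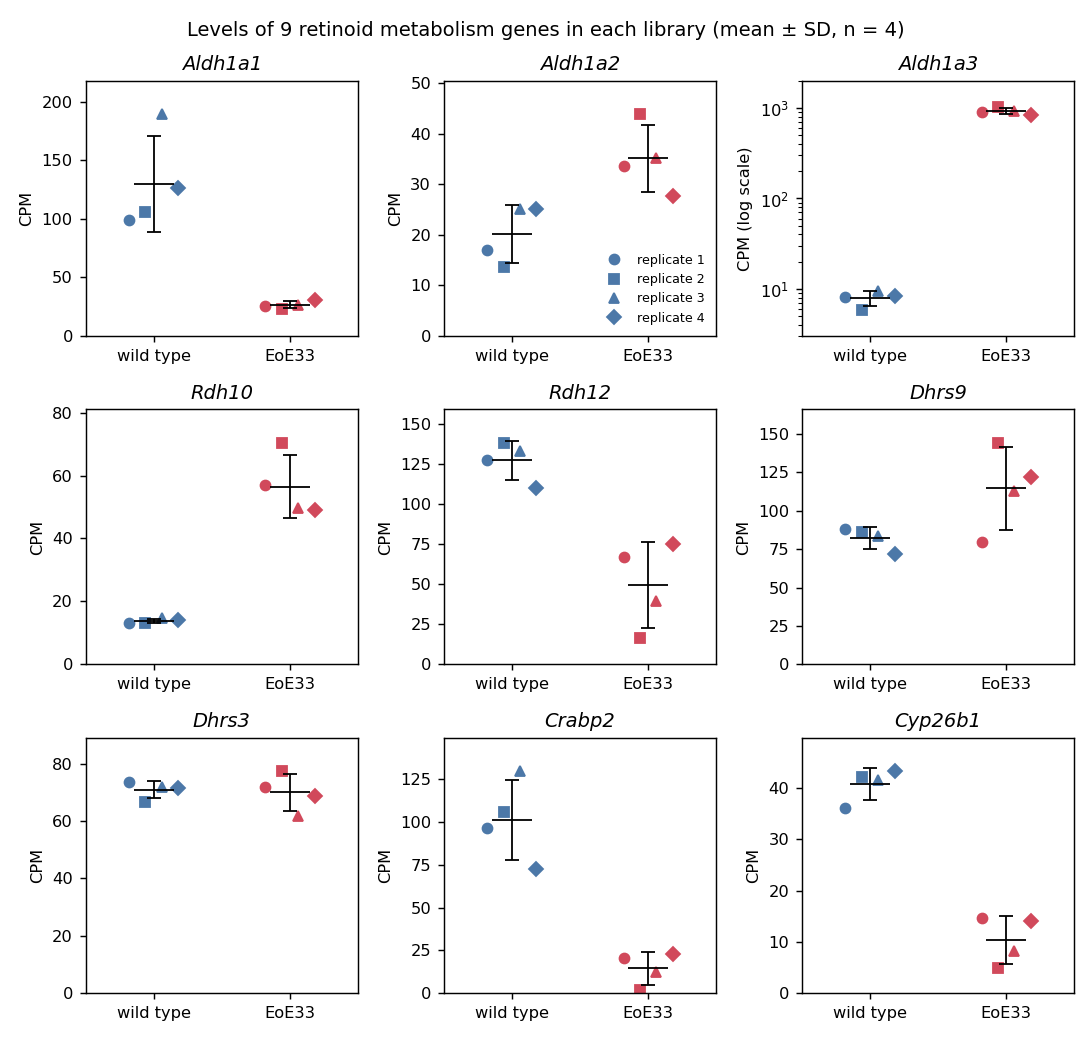
Level of each of the 9 genes in CPM (vertical axes, linear from 0 except the log axis of Aldh1a3) in the 4 wild type and 4 EoE33 libraries, with marker shapes for replicates and black bars for the mean ± SD. Aldh1a3 sits between 5.84 and 9.35 CPM in wild type and between 845.3 and 1029.8 CPM in EoE33, while the groups overlap for Dhrs3 and Dhrs9.

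Aldh1a3, one of the 3 retinaldehyde dehydrogenases, had by far the widest difference among the members. The gene (ENSMUSG00000015134) lies on the minus strand of chromosome 7 from 66390890 to 66427517 in GRCm38. It stood at 8.02, 5.84, 9.35 and 8.395 CPM in wild type replicates 1 to 4, and at 913.1, 1029.8, 926.5 and 845.3 CPM in EoE33 replicates 1 to 4. Every EoE33 library was higher than every wild type library, and the spread within each group was small beside the gap. The means were 7.90 ± 1.48 and 928.7 ± 76.2 CPM (SD, n = 4 each), with a log2 fold change of 6.88 and a standard error of 0.17. By mean CPM it ranked 10569th of the 16760 genes tested in wild type and 89th in EoE33, and by log2 fold change it ranked 57th. Without wild type replicates 1 and 3, the libraries with liver and airway transcripts, its log2 fold change was 7.02.

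Aldh1a1, the second dehydrogenase, went the other way. The gene (ENSMUSG00000053279) spans 20492715 to 20643465 of chromosome 19 in GRCm38. Its levels were 99.4, 106.2, 189.5 and 126.1 CPM in wild type and 25.7, 23.5, 26.7 and 30.5 CPM in EoE33. All EoE33 libraries lay below all wild type libraries, and wild type replicate 3 was the highest of its group. The means were 130.3 ± 41.0 and 26.6 ± 2.91 CPM (SD, n = 4 each), with a log2 fold change of −2.29 and a standard error of 0.21. Airway epithelium is a known site of Aldh1a1, and the summed level of 7 airway markers was 1894 CPM in wild type replicate 3 against 374.1 to 543.2 CPM in the other wild type libraries. Most of the sum in those libraries was Cyp2f2, at 367.3 to 535.8 CPM. In EoE33 the sum was 55.4 to 131.3 CPM, and 3 of the 7 markers were lower and 4 had too few counts to test. Of those 3, Bpifa1 was at 635.5 CPM in wild type replicate 3 and at 0.747 to 0.934 CPM in the other wild type libraries, inside its EoE33 range of 0.430 to 2.16 CPM. Scgb1a1 was also highest by far in that replicate. Its level in the other wild type libraries, 5.44 to 5.90 CPM, was still above its EoE33 range of 0.191 to 1.05 CPM. Cyp2f2 was at 54.0 to 130.5 CPM in EoE33, below every wild type library. Without wild type replicate 3 the log2 fold change of Aldh1a1 was −2.06. The part of airway tissue in the Aldh1a1 level was not tested. Its close relative Aldh1a7 shared no 150-base window of its longest transcript with Aldh1a1 or any other gene, so a read of that length without errors separates the 2 genes.

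Aldh1a2, the third dehydrogenase, is known from mesenchyme, mesothelium and some myeloid cells. The gene (ENSMUSG00000013584) lies on chromosome 9 from 71215789 to 71296243 in GRCm38. It was at 16.9, 13.7, 25.1 and 25.01 CPM in wild type and at 33.7, 43.8, 35.3 and 27.6 CPM in EoE33. The groups did not overlap, but wild type replicates 3 and 4 came close to the lowest EoE33 library. The mean was 20.2 ± 5.79 CPM against 35.1 ± 6.69 CPM (SD, n = 4 each), with a log2 fold change of 0.80 and a standard error of 0.22. Within wild type the order of libraries was that of the mesothelial marker Upk3b, which stood at 15.7, 4.92, 50.5 and 50.4 CPM, and Aldh1a3 had that order too. In EoE33 Upk3b was at 6.64, 4.04, 11.0 and 11.3 CPM, so that replicate 2 was the lowest for Upk3b and the highest for Aldh1a2. The other mesothelial markers were divided there. Wt1 and Lrrn4 were also lowest in EoE33 replicate 2, Krt8 and Krt18 were highest, and Msln and Upk1b lay in between. Over the list, the summed level of 7 mesothelial markers was 10.9 to 140.1 CPM in wild type and 20.3 to 45.7 CPM in EoE33, with none of the 7 past the threshold. Of the fibroblast markers 6 of 7 were lower, with sums of 3941 to 4766 CPM in wild type and 2075 to 3027 CPM in EoE33. All 6 macrophage markers were higher, with sums of 180.2 to 297.9 CPM and 364.5 to 477.5 CPM. Of the dendritic cell markers 3 of 6 were higher and 1 was lower, with sums of 14.0 to 29.3 CPM and 30.9 to 37.7 CPM. The part of these cells in the Aldh1a2 level was not tested.

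The make-up of the dehydrogenase transcripts was therefore different in the 2 groups. Levels per kb of exon (CPM divided by the length of the union of annotated exons) allow the 3 genes to be set side by side. In wild type Aldh1a1 made up 71.1% ± 4.14 of their summed level, Aldh1a2 24.2% ± 3.64 and Aldh1a3 4.74% ± 0.85 (SD, n = 4). The corresponding EoE33 shares were 2.45% ± 0.47, 6.94% ± 0.73 and 90.6% ± 0.28 (SD, n = 4). The Aldh1a3 share was 3.93% to 5.92% in single wild type libraries and 90.2% to 90.9% in single EoE33 libraries. The summed level was 29.4, 28.8, 51.5 and 38.4 CPM per kb in wild type and 217.9, 247.2, 221.7 and 201.4 CPM per kb in EoE33. Shares within a library do not depend on how libraries are scaled, but they do depend on the lengths used.

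**Figure D2:**
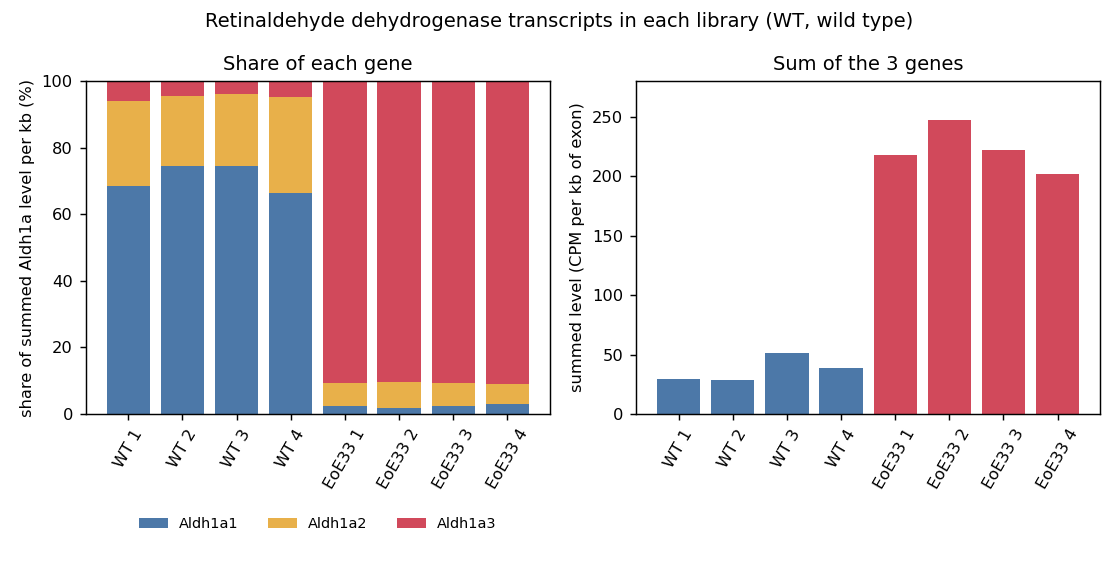
Left, share of Aldh1a1, Aldh1a2 and Aldh1a3 in their summed level per kb of exon (percent) in each library. Right, that sum in CPM per kb of exon. Aldh1a3 holds 4.74% on average in wild type and 90.6% in EoE33, and the sum is higher in every EoE33 library than in any wild type library.

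Both members that oxidise retinol to retinaldehyde, Rdh10 and Dhrs9, had higher means in EoE33. Other genes that act on retinol are given below, and several of them fell. Rdh10, the main retinol dehydrogenase of the embryo, lies on chromosome 1 from 16105774 to 16133734 in GRCm38 (ENSMUSG00000025921). It was at 13.3, 13.3, 14.6 and 14.0 CPM in wild type and at 56.9, 70.4, 49.5 and 49.0 CPM in EoE33. The 4 wild type libraries were nearly equal, and the lowest EoE33 library was far above them. The means were 13.8 ± 0.65 and 56.5 ± 9.96 CPM (SD, n = 4 each), a log2 fold change of 2.03 with a standard error of 0.12. Dhrs9, a dehydrogenase reported to act on retinol, lies on chromosome 2 from 69380445 to 69404533 (ENSMUSG00000027068). Its levels were 87.9, 86.0, 83.3 and 71.9 CPM in wild type and 79.3, 144.1, 113.0 and 121.9 CPM in EoE33. The groups overlapped, since EoE33 replicate 1 lay inside the wild type range. The means were 82.3 ± 7.16 and 114.6 ± 26.9 CPM (SD, n = 4 each), a log2 fold change of 0.48 (standard error 0.16). It was no longer past the threshold without wild type replicate 3 or 4, without both wild type replicates 1 and 3, or without EoE33 replicate 2, 3 or 4.

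Rdh12, known from photoreceptors as a retinaldehyde reductase, was lower in EoE33. The gene lies on chromosome 12 from 79208914 to 79222665 in GRCm38 (ENSMUSG00000021123). It was at 127.6, 138.5, 133.5 and 110.4 CPM in wild type and at 67.2, 16.4, 39.6 and 75.2 CPM in EoE33. All EoE33 libraries were below all wild type libraries, but they differed widely among themselves. The means were 127.5 ± 12.2 and 49.6 ± 26.9 CPM (SD, n = 4 each), with a log2 fold change of −1.36 and a standard error of 0.42. It was no longer past the threshold without wild type replicate 2, without EoE33 replicate 3 or without both wild type replicates 1 and 3. Dhrs3, the reductase that works together with Rdh10, was at 73.5, 66.5, 71.8 and 71.5 CPM in wild type and at 71.9, 77.3, 61.7 and 68.8 CPM in EoE33. The gene lies on chromosome 4 from 144892827 to 144928209 (ENSMUSG00000066026). Its groups overlapped, and its log2 fold change of −0.02 had a 95% interval of −0.19 to 0.15. The ratio of Rdh10 to Dhrs3 levels per kb went from 0.137 ± 0.007 in wild type to 0.566 ± 0.057 in EoE33 (SD, n = 4 each), and it was higher in each EoE33 library than in any wild type library.

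Crabp2, the cytosolic carrier that hands retinoic acid to its receptors, was the member with the lowest fold. The gene (ENSMUSG00000004885) lies on chromosome 3 from 87948666 to 87953376 in GRCm38. It was at 96.7, 105.8, 129.8 and 72.6 CPM in wild type and at 20.5, 1.70, 12.4 and 22.6 CPM in EoE33. The groups did not overlap, and EoE33 replicate 2 was far below the other EoE33 libraries. The means were 101.2 ± 23.6 and 14.3 ± 9.48 CPM (SD, n = 4 each), with a log2 fold change of −2.82 and a standard error of 0.62. Without EoE33 replicate 2 the log2 fold change was −2.45. Cyp26b1, which degrades retinoic acid, lies on the minus strand of chromosome 6 from 84571414 to 84593908 (ENSMUSG00000063415). Its levels were 36.2, 42.1, 41.7 and 43.3 CPM in wild type and 14.6, 4.86, 8.20 and 14.0 CPM in EoE33. The groups stood well apart, with means of 40.8 ± 3.18 and 10.4 ± 4.69 CPM (SD, n = 4 each), a log2 fold change of −1.97 and a standard error of 0.30.

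Per kb of exon, the order of the 9 genes was different in the 2 groups. In wild type Crabp2 was highest at 76.6 CPM per kb, followed by Rdh12 at 43.0, Aldh1a1 at 26.4, Dhrs3 at 24.2, Dhrs9 at 19.2, Aldh1a2 at 8.92, Cyp26b1 at 7.63, Rdh10 at 3.32 and Aldh1a3 at 1.71 CPM per kb. Neighbours whose libraries overlapped in that order were Rdh12 and Aldh1a1, Aldh1a1 and Dhrs3, and Aldh1a2 and Cyp26b1. In EoE33 Aldh1a3 was highest at 201.1 CPM per kb, ahead of Dhrs9 at 26.8, Dhrs3 at 23.9, Rdh12 at 16.7, Aldh1a2 at 15.5, Rdh10 at 13.6, Crabp2 at 10.8, Aldh1a1 at 5.39 and Cyp26b1 at 1.95 CPM per kb. There the ranges over the 4 libraries were apart between Aldh1a3 and Dhrs9 and between Aldh1a1 and Cyp26b1, and overlapped for the other neighbours.

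EoE33 replicate 2 was the highest or the lowest of its group for all 9 members, highest for 5 and lowest for 4, where it was so for 61.9% of all genes tested. It was highest for the 4 members above wild type in the mean and lowest for the 4 below. Crabp2, Rdh12 and Cyp26b1 were lowest in EoE33 replicate 2, next in replicate 3, and higher in replicates 1 and 4. Aldh1a1, the fourth member below wild type, was also lowest in replicate 2, but next in replicate 1, and the members above wild type had other orders. The suprabasal keratin genes Krt4 and Krt13 and the cornified envelope gene Lor had that same order of 2, then 3, then the others. Krt4 was at 11262, 3848, 6142 and 8948 CPM and Lor at 1737, 70.0, 332.0 and 1323 CPM in EoE33 replicates 1 to 4. The coefficient of variation within EoE33 was 66.3% for Crabp2, 54.1% for Rdh12 and 45.1% for Cyp26b1, but 8.21% for Aldh1a3 and 11.0% for Aldh1a1.

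**Figure D3:**
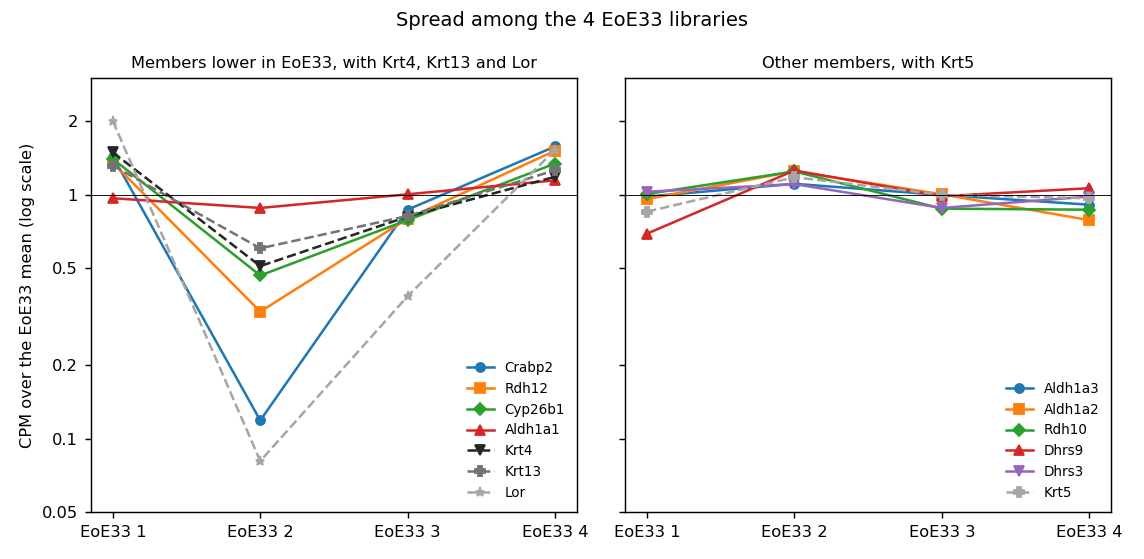
Level in each EoE33 library divided by the mean of the 4 (vertical axis, log scale), with solid lines for members and dashed lines for the comparison genes Krt4, Krt13, Lor and Krt5. Lines join the libraries only to guide the eye. Crabp2, Rdh12 and Cyp26b1 dip in EoE33 replicate 2 with Krt4, Krt13 and Lor, while Aldh1a1 and the members on the right stay nearer to their means.

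Crabp2 and Krt4 also kept a near fixed ratio in wild type. This ratio was chosen after the values were seen and is a description. Wild type libraries held 2.80, 2.76, 2.87 and 2.86 Crabp2 counts per 1000 Krt4 counts, a coefficient of variation of 1.83%, where that of Crabp2 in CPM was 23.4%. In EoE33 the ratio was 1.82, 0.441, 2.02 and 2.52, below wild type in every library. The ratio of Crabp2 to Krt13 was as steady in wild type, at 2.95 to 3.05 with a coefficient of variation of 1.29%. It was 0.163 to 1.03 in EoE33. For Cyp26b1 the counts per 1000 Krt4 counts were 0.924 to 1.71 in wild type and 1.26 to 1.56 in EoE33, so that on this scale the groups overlapped, and for Aldh1a1 they were 2.78 to 4.97 and 2.29 to 6.10. Set against Krt13 in place of Krt4, both genes were lower in every EoE33 library than in any wild type library, with 0.979 to 1.79 and 0.466 to 0.641 for Cyp26b1 and 2.96 to 5.22 and 1.13 to 2.25 for Aldh1a1. Aldh1a3 stayed higher against any of the 3 keratin genes, with 2.84 to 5.46 counts per 1000 Krt5 counts in wild type and 118 to 145 in EoE33. Rdh10 overlapped between groups on that scale, with 6.47 to 9.13 and 6.70 to 9.02 counts per 1000 Krt5 counts. Aldh1a2 and Dhrs9, which were higher in EoE33 in CPM, were lower in every EoE33 library on the Krt5 scale. Their counts per 1000 Krt5 counts were 6.66 to 16.3 and 3.86 to 5.34 for Aldh1a2, and 37.5 to 50.9 and 12.6 to 17.0 for Dhrs9. Against Krt4 or Krt13 both stayed higher in every EoE33 library. Rdh12, lower in EoE33 in CPM, had a higher mean per 1000 Krt4 counts there, 6.27 against 3.66 in wild type, with overlapping groups. Against Krt13 the groups overlapped for Rdh12 too, at 3.13 to 4.57 in wild type and 1.58 to 3.45 in EoE33. Against Krt5 it was lower in every EoE33 library. Dhrs3, at the same mean level in CPM, was higher in every EoE33 library against Krt4 or Krt13 and lower in every one against Krt5. Its mean counts per 1000 went from 2.07 to 11.1 for Krt4, from 2.19 to 4.52 for Krt13 and from 38.4 to 9.55 for Krt5. Krt5, Krt4 and Krt13 themselves differed between the groups, so these ratios show unequal change only.

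The other genes of the route were taken from 6 lists of 70 genes chosen by known function, of which 49 had enough counts to test. Of these 15 rose and 20 fell (edgeR quasi-likelihood test, adjusted over all genes tested), against 31.3% and 32.1% of all genes. Members of these lists not named by the rule given under processing were picked after their values were seen. The lists themselves were chosen by known function, but with earlier results of these data known. Their counts, medians and adjusted p-values are therefore a description, and nothing is read from them about the route as a whole.

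Uptake, transport and storage genes rose in 4 and fell in 2 of 9 tested members, with a median log2 fold change of 0.32 against −0.01 over all genes. Stra6, the membrane receptor that takes up retinol from its blood carrier, was at 1.53, 1.19, 1.82 and 2.40 CPM in wild type and at 15.7, 70.8, 22.2 and 11.8 CPM in EoE33. Stra6 rose with a log2 fold change of 4.11 (SE 0.67, edgeR adjusted p = 0.00111), which was 3.26 without EoE33 replicate 2. The groups did not overlap, and EoE33 replicate 2 stood far above the other EoE33 libraries. The scavenger receptor gene Scarb1 rose 1.61-fold and the cellular binding protein gene Rbp2 1.48-fold. Rbp7, another cellular binding protein gene, fell, with a log2 fold change of −2.04. Dgat1, an acyltransferase that can esterify retinol, did not pass, with 30.0 ± 14.3 and 37.4 ± 4.82 CPM (SD, n = 4 each). Rbp4, the blood carrier, was at 12.8 ± 9.76 and 3.68 ± 2.01 CPM and missed the threshold (edgeR adjusted p = 0.0514), but passed without wild type replicate 2 (0.0473), wild type replicate 3 (0.0137) or EoE33 replicate 1 (0.0431), and without both wild type replicates 1 and 3 (0.0462). Lrat, the main retinol esterifying enzyme, had 63 counts over wild type and 23 over EoE33 and was not tested.

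Other oxidoreductases rose in 4 and fell in 6 of 13 tested members, with a median log2 fold change of −0.37. Sdr16c6 and Sdr16c5, epidermal retinol dehydrogenases, fell from 41.2 ± 4.15 to 1.87 ± 1.19 CPM and from 25.6 ± 2.45 to 2.09 ± 1.78 CPM (SD, n = 4 each), with edgeR adjusted p-values of 6e-05 and 0.000645. Both were lowest in EoE33 replicate 2, at 0.234 CPM, and the log2 fold change of Sdr16c5, −3.60, was −4.25 without EoE33 replicate 4. Adh1, an alcohol dehydrogenase that also acts on retinol, fell 3.62-fold (edgeR adjusted p = 6.28e-06), and Rdh13 fell 2.15-fold. Adh7, the retinol-active alcohol dehydrogenase of upper digestive epithelia, fell from 373.3 ± 82.8 to 230.9 ± 59.97 CPM (SD, n = 4 each, edgeR adjusted p = 0.0241), with overlapping groups. The call was lost without wild type replicate 2 (0.0692), wild type replicate 3 (0.0611) or EoE33 replicate 3 (0.0684), and without both wild type replicates 1 and 3 (0.131). Akr1b8, a relative of the human retinaldehyde reductase AKR1B10, rose from 15.4 ± 1.41 to 86.9 ± 24.4 CPM (SD, n = 4 each, edgeR adjusted p = 1.42e-05). Adh5 and Dhrs4 did not pass, with log2 fold changes of −0.12 and −0.02.

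Of the genes of other retinal oxidation, carriage and clearance, 1 rose and 2 fell among 4 tested. Aox1, an aldehyde oxidase that can oxidise retinaldehyde, fell from 135.8 ± 12.9 to 28.6 ± 6.28 CPM (SD, n = 4 each, edgeR adjusted p = 3.9e-06). Aldh1a7 fell 1.74-fold, a smaller log2 fold change (−0.80) than that of Aldh1a1. Fabp5, which can carry retinoic acid to PPAR delta, rose from 1574 ± 164 to 2217 ± 352 CPM (SD, n = 4 each, edgeR adjusted p = 0.00861). The ratio of Crabp2 to Fabp5 levels per kb went from 0.172 ± 0.025 in wild type to 0.016 ± 0.010 in EoE33 (SD, n = 4 each). Cyp26a1, the other main retinoic acid hydroxylase, had 4 counts over wild type and 19 over EoE33, and Cyp26c1 had 1 and 0. Both had too few for the filter on low counts. Cyp26a1 was at 0 to 0.0857 CPM in wild type and at 0.143 to 0.351 CPM in EoE33, close to the floor.

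Of 8 receptors and corepressors 2 rose and 2 fell, and the 4 others, which did not pass, had log2 fold changes between −0.20 and −0.06. Rarb, a receptor gene that is itself a target of retinoic acid, was at 10.1, 11.5, 11.9 and 8.82 CPM in wild type and at 5.39, 4.57, 5.26 and 5.94 CPM in EoE33. It fell from a mean of 10.6 ± 1.397 to 5.29 ± 0.57 CPM (SD, n = 4 each, edgeR adjusted p = 0.000178), with every EoE33 library below every wild type library. Rxrg, the RXR isoform of muscle and nerve, fell 3.57-fold. The 8 skeletal muscle markers were also lower, and the part of muscle in the Rxrg level was not tested. Ppard rose 1.47-fold. Rara passed narrowly with 15.8 ± 1.75 and 19.2 ± 1.25 CPM (SD, n = 4 each, edgeR adjusted p = 0.0293) and overlapping groups. It did not pass without wild type replicate 1 (0.0865), 2 (0.0577) or 4 (0.0533) or without EoE33 replicate 2 (0.0593) or 3 (0.0737), nor without both wild type replicates 1 and 3 (0.0614). Rarg and Rxra, the main RAR and RXR of skin epithelium, stood at 144.8 ± 8.23 and 126.3 ± 12.4 CPM and at 188.2 ± 8.27 and 170.4 ± 21.5 CPM (SD, n = 4 each) and did not pass (edgeR adjusted p = 0.0597 and 0.196). Without EoE33 replicate 4 both passed (0.0253 and 0.0232), and Rarg also without wild type replicate 4 (0.0436). Rxrb and Ncor1 did not pass either, with edgeR adjusted p-values of 0.329 and 0.24, and their log2 fold changes changed sign when libraries were scaled without the counts of Chil4, a chitinase-like gene.

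Genes known to be induced by retinoic acid split, with 4 of 10 tested higher and 5 lower and a median log2 fold change of −0.265. Hbegf, which encodes an EGF family growth factor, rose from 26.7 ± 6.92 to 225.0 ± 20.8 CPM (SD, n = 4 each, edgeR adjusted p = 2.79e-06). Nrip1, a nuclear receptor cofactor gene, rose 1.47-fold. Rarres1, named for its response to retinoids in human skin, fell from 6.82 ± 1.64 to 0.86 ± 0.20 CPM (SD, n = 4 each, edgeR adjusted p = 9.78e-06). Tgm2, a transglutaminase gene, fell 1.69-fold (edgeR adjusted p = 0.000197). Stra6 on this list is also a transport gene, and Rarb is also a receptor.

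Genes known to be repressed by retinoic acid in keratinocytes fell in 4 and rose in 1 of 7 tested members, with a median log2 fold change of −3.77. Krt10, a keratin of cornifying epithelium, fell with a log2 fold change of −3.77 (SE 0.65, edgeR adjusted p = 0.00143), and was at 68.3, 62.1, 13.3 and 128.4 CPM in wild type. The profilaggrin gene Flg and the keratin gene Krt1 had log2 fold changes of −7.28 and −7.20, and wild type replicate 3 was again the lowest of its group, at 19.0 and 1.10 CPM. For Krt1 the groups overlapped, its log2 fold change was −6.60 without wild type replicate 4, and the call was lost with limma-voom (adjusted p = 0.27). Lor fell by 3.92 on the log2 scale (edgeR adjusted p = 0.00653), and its log2 fold change came to −4.51 when EoE33 replicate 1 was left out. Tgm1, the transglutaminase that crosslinks the cornified envelope, rose from 368.2 ± 54.2 to 991.1 ± 54.2 CPM (SD, n = 4 each, edgeR adjusted p = 7.81e-06). Sprr1b did not pass (edgeR adjusted p = 0.121) except without EoE33 replicate 2 (0.0106), the library in which it stood at 24.8 CPM while the other EoE33 libraries had 96.3 to 205.4 CPM.

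**Figure D4:**
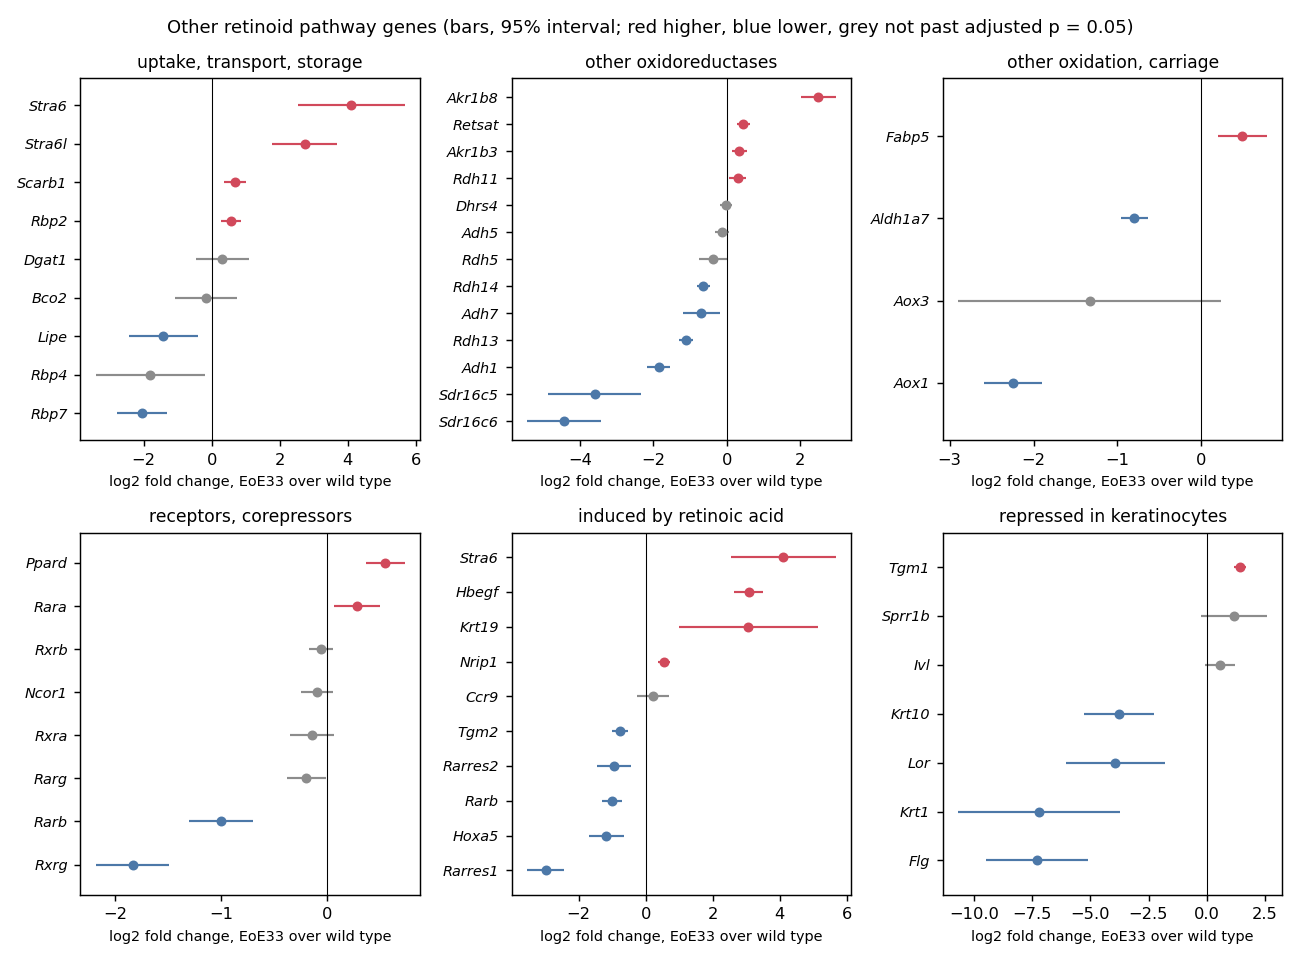
Log2 fold change of EoE33 over wild type (horizontal axes, each panel with its own range) for the tested genes of the 6 lists, with 95% intervals as bars. Red points rose, blue points fell and grey points did not pass an edgeR adjusted p of 0.05, and every list holds genes on both sides of 0.

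Promoter windows, from 250 bases before to 50 after each RefSeq start in GRCm38.p6, were at hand for 6 of the 9 members, in 9 windows. Aldh1a3, Rdh10 and Crabp2 had no window and were not searched. The retinoic acid response element was searched on both strands as 2 half-sites, each AGGTCA or AGTTCA or else GGGTCA or GGTTCA, in direct repeat with 5 or 2 bases between them. The 5-base form occurred in 0.0974% of all 32851 windows and the 2-base form in 0.268%. None of the member windows held either form, which says only that these letters are not there. Among the other genes of the route, the 5-base form lay in the windows of Rarb and Cyp26a1, and these stretches are shown because they are the matches to the element in the listed genes (element in capitals). The 5-base element of Rarb runs from 53 to 37 bases before the start, and that of Cyp26a1 from 32 to 16 bases before it, where it reads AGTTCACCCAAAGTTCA on the opposite strand.
Rarb, chr14:16575481-16575561, minus strand: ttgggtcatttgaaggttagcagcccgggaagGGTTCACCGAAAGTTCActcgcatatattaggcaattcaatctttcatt
Cyp26a1, chr19:37697744-37697822, plus strand: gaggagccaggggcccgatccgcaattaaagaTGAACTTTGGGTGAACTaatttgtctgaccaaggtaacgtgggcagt

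Of the members, Dhrs9 held a single AGGTCA half-site on the opposite strand, a motif found in 16.3% of all windows, and Cyp26b1 held TATAAA, found in 13.6% and also in the Dhrs9 window. Both stretches are shown as examples, picked after the matches were seen, of member windows with a match (motif in capitals).
Dhrs9, chr2:69380337-69380416, plus strand: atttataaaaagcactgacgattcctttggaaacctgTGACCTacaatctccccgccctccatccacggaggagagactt
Cyp26b1, chr6:84593907-84593986, minus strand: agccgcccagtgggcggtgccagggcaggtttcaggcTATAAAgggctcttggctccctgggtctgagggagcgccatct
A STAT6 motif, searched as well and present in 6.95% of all windows, lay in 2 overlapping windows of Dhrs3 and in no other member window. These matches are descriptions of the windows, not sites of binding.

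The genes whose profile over the 8 libraries was most like that of Aldh1a3 were Elf3, Trem2, Tram1, Pcyt1b and Ssr3. Pearson's r of log2 CPM was 0.9992, 0.9991, 0.9988, 0.9988 and 0.9988. An r of at least 0.99 was reached by 254 of the 15025 other genes whose mean reached 1 CPM (1.69%), and the value rests mainly on the gap between the groups. Elf3, an epithelial transcription factor gene, went from 10.9 ± 0.87 to 363.9 ± 41.7 CPM (SD, n = 4 each), and Trem2, a receptor gene of macrophages, from 1.35 ± 0.13 to 7.97 ± 0.17 CPM. Tram1 and Ssr3, which serve protein entry into the endoplasmic reticulum, went from 68.4 ± 3.79 to 168.9 ± 4.12 CPM and from 178.8 ± 5.40 to 378.9 ± 12.7 CPM.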

How the data were processed

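Whole esophagus RNA of 8 mice, selected for polyA, was sequenced in paired ends on an Illumina HiSeq, per the labels' protocols. The authors deposited raw counts per Ensembl gene. Per the submitters' processing notes the build was GRCm38 and the tools were STAR 2.5.2b, Subread 1.5.2, featureCounts and Trimmomatic 0.36. Their settings for strand and multi-mapping, and the annotation release, are not given in the sources. Columns were assigned by the spreadsheet letter in each sample's description. Of 49315 identifiers 49056 matched GENCODE M21, which gave symbols, positions and exon lengths.

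Members and lists were chosen with earlier results of these data known. Some genes of the lists are not reported here. Counts were filtered with filterByExpr, scaled by TMM and tested by the robust quasi-likelihood method of edgeR 4.0.16 in R 4.3.3, with Benjamini-Hochberg adjustment over 16760 genes. Standard errors came from the F statistic. The procedure was tested on simulated counts. Total counts per library limit precision: the 9 members had at least 29 counts in every library. Replicates differed by more than counting noise, with a chi-square of 10.38 to 70.1 per degree of freedom for pairs within a group. The p-values weigh the difference between the groups against the spread between libraries, each of 1 mouse. Named from each list were the 4 genes with the smallest p past the threshold and a mean of at least 1 CPM, and genes of at least 10 CPM that did not pass. Also named were the 5 genes most correlated with Aldh1a3. Ratios to Krt4, Krt13 and Krt5 were added after seeing the data. Alternatives were DESeq2 1.42.0, limma-voom (limma 3.58.1), other scalings and filters, the replicate number as a term, and leaving out libraries.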

Additional observations from a re-analysis of the deposited data

How the results depend on the processing

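Across 18 alternatives each, the 9 members kept direction and side of the threshold in 148 of 162 values, 11 lost the threshold and 3 changed sign. Those 3 belong to Dhrs3, with log2 fold changes of 0.0824 (libraries scaled without Chil4), 0.0477 (without EoE33 replicate 3) and 0.0117 (without wild type replicates 1 and 3), and its range when 1 library was left out was −0.0672 to 0.0477. Rdh12 was also lost with no filter on low counts. In that leave-one-out range Bco2 ran from −0.5741 to 0.0979 and Dhrs4 from −0.0476 to 0.0155. Scaling without Chil4 moved the median of all genes by 0.102, turned Dhrs4 to 0.0791, Rxrb to 0.0423 and Ncor1 to 0.0091, and gave 6070 genes higher and 4550 lower in place of 5238 and 5383. With the length of the longest transcript the Aldh1a shares were 82.9%, 13.5% and 3.56% in wild type and 3.85%, 5.19% and 91.0% in EoE33 for Aldh1a1, Aldh1a2 and Aldh1a3. Leaving out 1 library gave 9705 to 10467 calls over all genes and 6 to 8 members past the threshold. Without wild type replicates 1 and 3 there were 8827 calls over all genes and 6 members. Same-numbered libraries correlated in their deviations at −0.136 to 0.104, with 1 of 4 pairs over 0.1, and 1 of 8 libraries correlated best with its own number. The replicate block gave 10056 calls against 10621, and 7 members past the threshold, without Dhrs9; Adh7 was lost and Rbp4 passed. Genes with few counts at this depth, such as Cyp26a1 and Lrat, were left out of the main fit by the filter on low counts. With no such filter all 8 genes of other retinal oxidation, carriage and clearance entered the fit, with 2 higher and 2 lower.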
